A study of Drosophila melanogaster with 15 samples.

Results

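The data are FPKM values (fragments per kilobase of transcript, scaled to the reads of the library) of 10 genes of the asymmetric cell division machinery in sorted midgut progenitor cells of adult *Drosophila melanogaster*. The genes were taken by name as known components of that machinery, by a rule that uses no measured value but was made with earlier results of these data known, and are 10 of the 17558 genes listed. They are *insc*, *pins*, *Galphai*, *loco* and *mud* of the apical and spindle side, *mira*, *stau*, *brat* and *numb* of the basal cargo, and *l(2)gl* of the cortex. About 10000 green fluorescent cells a sample were sorted from digested midguts of adults on day 7, and their RNA was amplified before sequencing. The 15 libraries form 5 groups of 3. They were labelled ttk-RNAi (RNA interference against *ttk*, a gene of transcriptional repressors), dpn OE (overexpression of *dpn*, which encodes a bHLH repressor), Nicd OE (overexpression of Nicd, the intracellular domain of Notch), seq&Nicd OE (*seq* and Nicd overexpressed together) and Ctrl (wild type). The driver, the constructs and the sorting days are not given in the sources used here. Whether the replicates are separate sorts of separate flies is not stated, and the p-values therefore cover the spread of these samples alone, which could be technical.

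Asymmetric division gives the daughters of a stem cell different fates by placing proteins on opposite sides of the dividing cell. In fly neuroblasts, where the machinery is best known, an apical complex of Par proteins recruits Insc. Insc binds Pins, Pins binds the G protein subunit Galphai, and the spindle is drawn to this side through Mud and dynein. The adaptor Mira takes Brat, the transcription factor Pros and the RNA-binding protein Stau to the basal side, and the Notch inhibitor Numb is inherited with them. In the adult midgut, stem cells renew themselves and produce enteroblasts and enteroendocrine precursors, and Notch activity differs between the daughters.

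Levels are per length, but amplification of the RNA can distort them between genes, so comparisons between genes are given as a description. Folds are ratios of group means in FPKM, and changes are differences of log2(FPKM + 1), tested with limma and adjusted by the Benjamini-Hochberg method over the 8209 genes with at least 1 FPKM in at least 3 libraries. A gene was called higher or lower at an adjusted p under 0.05. All 10 genes were tested, and all but *mud* were at 2.99 FPKM or more in every library. *mud* passed through the 3 libraries labelled ttk-RNAi and 1 of seq&Nicd OE, so it had to differ between groups. The estimated depth was 24700000 to 56000000 reads a library, of which 33.7% to 48.9% were assigned to genes in both Nicd groups and 56.4% to 65.6% in the other groups. Against Ctrl, the median change of all genes tested was 0.24 in ttk-RNAi and 0.50 in dpn OE, while it was -0.40 in Nicd OE and -0.17 with *seq* added, and seq&Nicd OE against Nicd OE gave 0.22. Changes relative to these medians are given where the call depends on them.

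The labels could be checked in part. *ttk* was at 112.8, 87.0 and 100.1 FPKM in the libraries labelled ttk-RNAi, against 43.6, 11.1 and 36.1 FPKM in Ctrl, so no fall of *ttk* was seen. As the constructs are not given, whether their reads count towards *ttk* is not known. The label could therefore not be checked by this gene, and each direction given for ttk-RNAi is that of the libraries so labelled. *dpn* was at 6.48, 7.16 and 4.65 FPKM in dpn OE, against 2.91, 1.45 and 2.75 FPKM in Ctrl. It was far higher in groups not labelled for it, at 268 to 311 FPKM in ttk-RNAi and 167 to 296 FPKM in seq&Nicd OE. *N* was at 12.1 to 29.1 FPKM in both Nicd groups, against 41.9 to 76.3 FPKM in Ctrl, and *seq* was listed at 0 in all 15 libraries. Some libraries stood apart within their group. Correlations across genes between Ctrl libraries went down to 0.91 and Ctrl replicate 2 had the lowest levels of several genes below. The third libraries of Nicd OE and seq&Nicd OE had 26.5 and 19.1 FPKM of *Nap1*, whereas the other libraries of these groups had at most 0.305. In comparisons with Ctrl and between the Nicd groups, calls of the genes named that turn on one of these libraries are given with and without it. Called changes whose size moves by over 1.5 times are given so too. Changes that were not called either way are not all given so. That of *numb* in dpn OE was 0.29, and -0.14 without Ctrl replicate 2.

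Against Ctrl, *brat* fell in all 4 manipulated groups, and *insc* and *loco* fell in all but dpn OE. In ttk-RNAi, 3 of the 10 genes were higher than in Ctrl (*stau*, *l(2)gl* and *mud*, the last having had to differ) and 3 were lower (*brat*, *insc* and *loco*), where 30.7% of all genes tested were called higher and 13.7% lower. In dpn OE, 4 were higher (*Galphai*, *pins*, *loco* and *mira*) and 1 was lower (*brat*), beside 44.6% and 12.5% of all genes. In Nicd OE, 0 were higher by limma, also at an unadjusted p under 0.05, and 5 were lower (*insc*, *loco*, *mira*, *brat* and *mud*), beside 5.07% and 34.2% of all genes. In seq&Nicd OE, likewise, 0 were higher at either p and 6 were lower (*insc*, *loco*, *brat*, *mira*, *l(2)gl* and *Galphai*), beside 13.3% and 21.2% of all genes. In seq&Nicd OE against Nicd OE, 2 were higher (*stau* and *mud*) and 1 was lower (*Galphai*), beside 15.8% and 3.85%. The first 4 comparisons share the Ctrl libraries. With the libraries scaled to equal medians, 49.8%, 47.3%, 49.6%, 49.6% and 50.4% of the calls over all genes were higher in these 5 comparisons, where the deposited scale gave 69.2%, 78.1%, 12.9%, 38.6% and 80.4%. Against Ctrl, the median change of the 10 genes was 0.33 in ttk-RNAi and 0.29 in dpn OE, while it was -0.57 in Nicd OE and -0.94 with *seq* added, and seq&Nicd OE against Nicd OE gave 0.01.

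**Figure D1:**
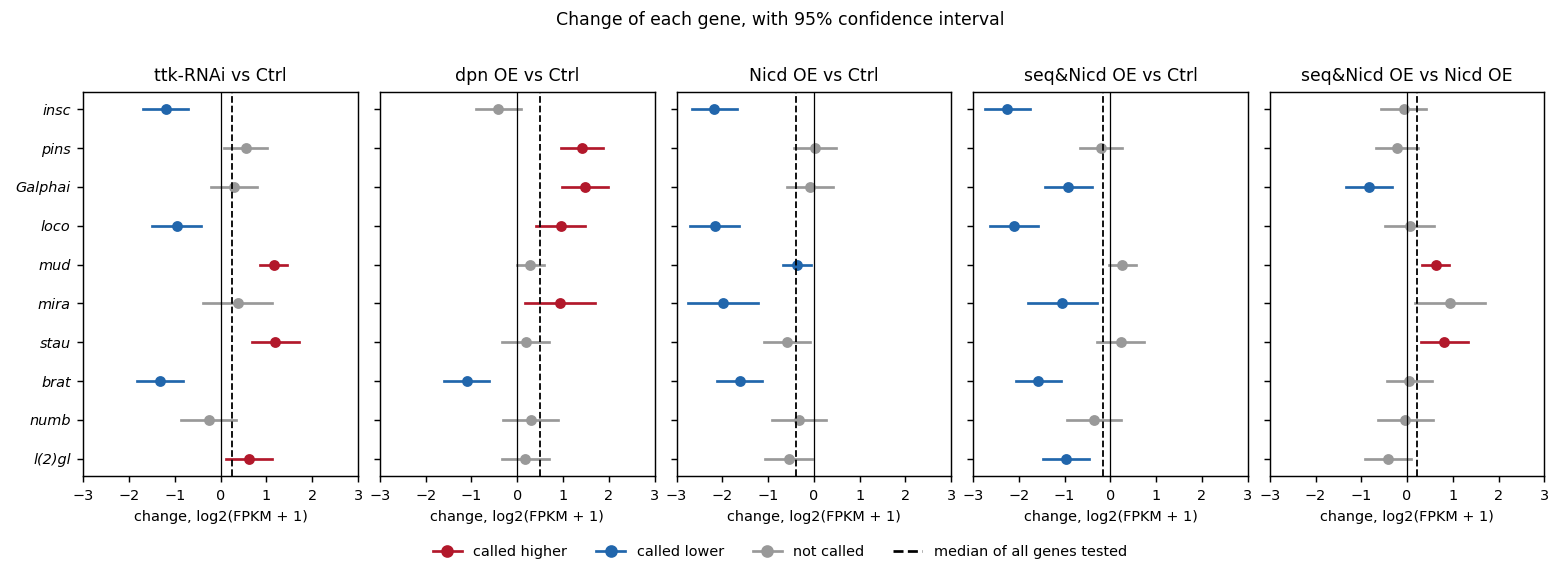
Change of each of the 10 genes on the log2(FPKM + 1) scale (x axis) in the 5 main comparisons; points are limma's estimates, bars their 95% confidence intervals, and the dashed line is the median of all genes tested. *insc*, *loco* and *brat* lie left of that line in both Nicd groups, at -1.57 or below, while *pins* (1.41) and *Galphai* (1.49) lie to its right in dpn OE.

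Inscuteable, the product of *insc* (chromosome 2R, 20821262 to 20836028, minus strand, in annotation BDGP6.54), is the adaptor between the Par complex and Pins. *insc* had 15.3, 18.2 and 18.7 FPKM in ttk-RNAi, 32.4, 32.7 and 26.8 FPKM in dpn OE, 11.4, 6.86 and 7.25 FPKM in Nicd OE and 6.73, 6.62 and 10.6 FPKM in seq&Nicd OE, against 40.4, 39.9 and 42.9 FPKM in Ctrl. Every Ctrl library was above every library of the other groups, and the Ctrl libraries differed from each other by less than for any other of the 10 genes. The level fell 4.83-fold in Nicd OE (change -2.18, SE 0.23, limma adjusted p = 7e-06), 5.14-fold in seq&Nicd OE (-2.25, adjusted p = 1.9e-06) and 2.36-fold in ttk-RNAi (-1.20, adjusted p = 0.00054). These 3 falls were called under every alternative run. In dpn OE the change was -0.42 with a 95% interval of -0.90 to 0.07 (limma adjusted p = 0.13). Relative to the median gene that change was -0.92, and with the libraries scaled to equal medians *insc* was called lower in dpn OE at -1.10 (limma adjusted p = 0.0029). In the order of levels, Ctrl and dpn OE did not differ past the threshold, dpn OE was above ttk-RNAi (limma adjusted p = 0.0078), ttk-RNAi was above Nicd OE (adjusted p = 0.0018), and Nicd OE and seq&Nicd OE were 8.50 ± 2.51 and 7.99 ± 2.28 FPKM (SD, n = 3). Of the exon bases of *insc*, 9.24% are shared with *sktl* on the same strand, where reads cannot be told apart.

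Pins (*pins*, chromosome 3R, 27582840 to 27586376, plus strand) is the scaffold that holds Galphai and Mud at the cortex. *pins* had 11.8, 13.9 and 13.0 FPKM in ttk-RNAi, 23.7, 25.1 and 24.4 FPKM in dpn OE, 7.06, 9.58 and 9.62 FPKM in Nicd OE and 7.43, 6.51 and 7.96 FPKM in seq&Nicd OE, against 10.2, 5.87 and 10.2 FPKM in Ctrl. The dpn OE libraries stood above all others, and the libraries of the remaining groups lay between 5.87 and 13.9 FPKM. *pins* rose 2.78-fold in dpn OE (change 1.41, SE 0.22, limma adjusted p = 9.3e-05), which was called under all 15 alternatives, with a change of 0.75 after scaling to equal medians. In ttk-RNAi the libraries were all above those of Ctrl, with a change of 0.54 that did not pass (limma adjusted p = 0.054). It was 0.31 without Ctrl replicate 2 (limma adjusted p = 0.17), and it was called without Ctrl replicate 1 (0.66, adjusted p = 0.032), without Ctrl replicate 3 (0.66, adjusted p = 0.039) and with no filter on low values (adjusted p = 0.039). In Nicd OE the change was 0.02, with an interval of -0.44 to 0.49. Relative to the median gene it was 0.42, and *pins* was called higher in Nicd OE under 4 of the 5 other scalings, with changes of 0.51 to 0.60.

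Galphai (*Galphai*, chromosome 3L, 6972750 to 6980044, minus strand) is the inhibitory G protein alpha subunit bound by Pins. *Galphai* had 20.5, 27.1 and 25.1 FPKM in ttk-RNAi, 47.8, 57.6 and 66.1 FPKM in dpn OE, 14.9, 20.4 and 20.7 FPKM in Nicd OE and 8.47, 10.3 and 11.1 FPKM in seq&Nicd OE, against 23.7, 14.1 and 22.2 FPKM in Ctrl. dpn OE was above and seq&Nicd OE below all other libraries. *Galphai* rose 2.85-fold in dpn OE (change 1.49, SE 0.24, limma adjusted p = 0.00012), under all 15 alternatives. It fell 2.01-fold in seq&Nicd OE against Ctrl (-0.92, limma adjusted p = 0.0075), a call that was lost when libraries were scaled to equal sums (-0.40) or equal assigned reads (-0.51), and when only these 2 groups were fitted. In Nicd OE the change was -0.08 (interval -0.58 to 0.43). It was positive under the scalings, and called higher under median-of-ratios scaling alone (0.49, limma adjusted p = 0.049).

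Loco (*loco*, chromosome 3R, 22619968 to 22639387, minus strand) is a regulator of G protein signalling that binds Galphai. *loco* had 22.1, 20.5 and 22.4 FPKM in ttk-RNAi, 84.8, 77.9 and 89.9 FPKM in dpn OE, 7.37, 7.10 and 13.1 FPKM in Nicd OE and 10.6, 7.98 and 9.35 FPKM in seq&Nicd OE, against 60.02, 36.5 and 36.7 FPKM in Ctrl. The groups did not overlap, except for Nicd OE with seq&Nicd OE, so that dpn OE, Ctrl, ttk-RNAi and both Nicd groups followed each other from high to low, each step past the threshold. *loco* fell 4.84-fold in Nicd OE (change -2.17, SE 0.25, limma adjusted p = 1.7e-05), 4.78-fold in seq&Nicd OE (-2.11, adjusted p = 8.8e-06) and 2.05-fold in ttk-RNAi (-0.96, adjusted p = 0.0055), and these calls held under every alternative run. The 1.90-fold rise in dpn OE (0.94, limma adjusted p = 0.0047) was 0.44 relative to the median gene and was lost under scaling to equal medians (0.25) and median-of-ratios scaling (0.25). In Nicd OE *loco* averaged 9.18 ± 3.38 FPKM, against 84.2 ± 6.01 FPKM in dpn OE (SD, n = 3), a 9.17-fold difference that among the 10 genes only *mira* exceeded (10.1-fold). An antisense gene shares 13.5% of its exon bases.

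*mud* (chromosome X, 14247732 to 14258595, plus strand) encodes the Pins-binding protein that engages dynein, the counterpart of vertebrate NuMA. *mud* had 2.13, 2.29 and 2.06 FPKM in ttk-RNAi, 0.755, 0.736 and 0.677 FPKM in dpn OE, 0.0524, 0.10 and 0.142 FPKM in Nicd OE and 0.516, 0.510 and 1.13 FPKM in seq&Nicd OE, against 0.665, 0.344 and 0.267 FPKM in Ctrl. ttk-RNAi stood above and Nicd OE below all other libraries. The level was 5.08-fold higher in ttk-RNAi (change 1.16), given as a description, since these libraries let *mud* pass the filter. In dpn OE the change was 0.28 (limma adjusted p = 0.096), and it was called without Ctrl replicate 1 (0.40, adjusted p = 0.026). The fall in Nicd OE (-0.37, limma adjusted p = 0.048) was 0.03 relative to the median gene and was kept by 6 of 16 alternatives. Leaving out any 1 Nicd OE library or Ctrl replicate 1 was among those that lost it (-0.40 to -0.25). Of the exon bases of *mud*, 98.6% are shared with an antisense gene. Whether reads were counted by strand is not given. Of the 18 coding genes that share at least 95% but not all of their exon bases with opposite-strand genes alone, 9 were listed at 0 in every library, as were 90.0% of the 70 that share all, against 2.94% of genes that share none. The values of *mud* are uncertain for this reason, and its level is not ranked with those of the other genes.

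**Figure D2:**
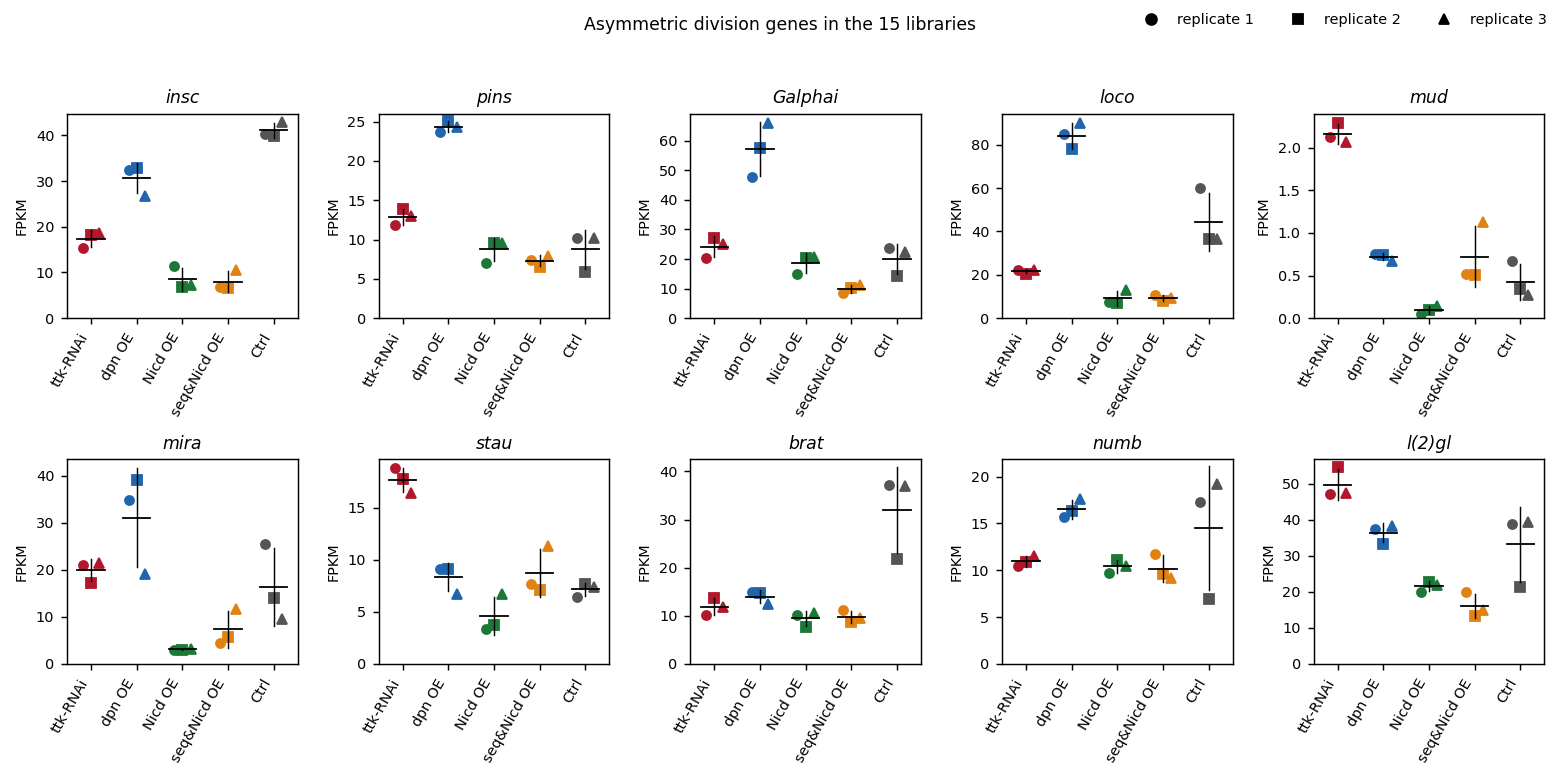
FPKM (y axis, from 0) of each gene in each of the 15 libraries, by group; symbols mark replicates 1 to 3, horizontal lines the group means and vertical lines 1 SD. *insc* is highest in Ctrl (39.9 to 42.9), *pins*, *Galphai* and *loco* in dpn OE, and *mud*, *stau* and *l(2)gl* in ttk-RNAi.

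Among the basal components, Miranda (*mira*, chromosome 3R, 19931799 to 19935120, minus strand) is the adaptor that carries Brat, Pros and Stau. *mira* had 21.0, 17.2 and 21.6 FPKM in ttk-RNAi, 34.9, 39.1 and 19.2 FPKM in dpn OE, 2.99, 3.04 and 3.22 FPKM in Nicd OE and 4.54, 5.73 and 11.7 FPKM in seq&Nicd OE, against 25.5, 14.1 and 9.50 FPKM in Ctrl. The 3 Nicd OE libraries were the lowest of all and their highest was 1.08-fold their lowest, while Ctrl spread 2.69-fold from its lowest to its highest library. *mira* fell 5.31-fold in Nicd OE (change -1.98, SE 0.36, limma adjusted p = 0.00063), under all 16 alternatives. In seq&Nicd OE it fell 2.23-fold (-1.05, limma adjusted p = 0.033), but the libraries overlapped with Ctrl and 7 of 16 alternatives lost the call, among them leaving out seq&Nicd OE replicate 1 (-0.80) or 2 (-0.94) or Ctrl replicate 1 (-0.69). In dpn OE it rose 1.90-fold (0.93, limma adjusted p = 0.036), with overlap, and the change was 0.43 relative to the median gene. The call was lost under 10 of 15 alternatives. Among them were leaving out dpn OE replicate 1 (0.82) or 2 (0.74) or Ctrl replicate 2 (0.88) or 3 (0.62). Scaling to equal medians (0.25), median-of-ratios scaling (0.25), quantile normalization (0.44) and equal sums (0.85) also lost it. Equal assigned reads kept it (0.87). In ttk-RNAi the change was 0.37 (interval -0.39 to 1.13, limma adjusted p = 0.42).

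Markers of dividing cells differed between the groups as well. The 12 markers, cyclins and mitotic genes with *PCNA* and *stg*, summed to 215 to 230 FPKM in ttk-RNAi, 136 to 176 FPKM in dpn OE, 10.7 to 24.0 FPKM in Nicd OE and 91.5 to 183 FPKM in seq&Nicd OE, against 63.9 to 114 FPKM in Ctrl. Nicd OE was lowest for both, and within every group but ttk-RNAi the library with the most *mira* also had the largest sum. In ttk-RNAi the most *mira* was in replicate 3 (sum 215) and the largest sum in replicate 1. This group had larger sums but a lower mean of *mira* than dpn OE. *stg* weighed on these sums, with 80.6 to 97.2 FPKM in ttk-RNAi and 11.4 to 12.3 FPKM in dpn OE. *PCNA* and *aurB* were also higher in ttk-RNAi. *Cdk1* (16.7 to 18.4 FPKM in ttk-RNAi, 30.6 to 41.8 FPKM in dpn OE), *pav*, *BubR1*, *Ndc80*, *CycB3* and *Incenp* were higher in dpn OE. *CycA*, *CycB* and *fzy* overlapped. Between groups, *mira* was at 11.7 FPKM in seq&Nicd OE replicate 3 (sum 183) and at 25.5 FPKM in Ctrl replicate 1 (sum 114). *stg* was at 52.6 to 64.8 FPKM in seq&Nicd OE and 21.7 to 33.1 FPKM in Ctrl. None of the 12 was at 0 in all libraries of a group, and *Ndc80* was near 0 in Nicd OE (at most 0.160 FPKM). In bulk samples fewer cells of a type and less RNA per cell cannot be told apart, and the part of dividing cells in the level of *mira* was not tested.

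**Figure D3:**
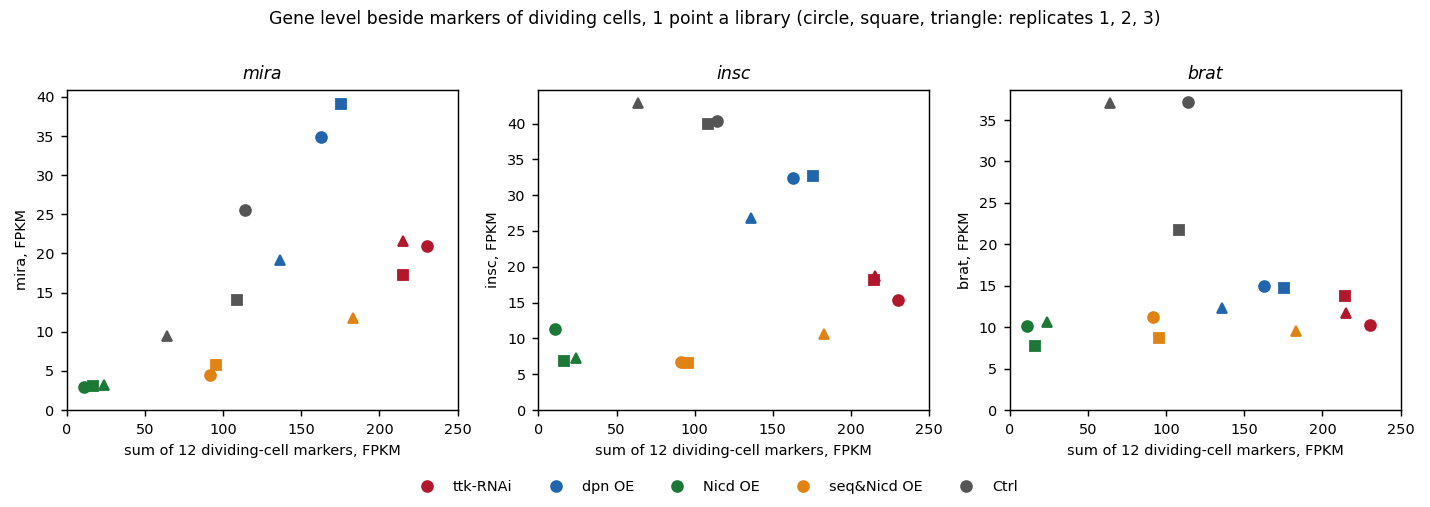
FPKM of *mira*, *insc* and *brat* (y axes) against the summed FPKM of 12 markers of dividing cells (x axis), 1 point a library, coloured by group. The Nicd OE libraries have the lowest sums (10.7 to 24.0) and the lowest *mira*, while *insc* and *brat* are highest in Ctrl at sums of 63.9 to 114.

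Staufen (*stau*, chromosome 2R, 18117896 to 18125779, minus strand) is a double-stranded RNA-binding protein that takes *pros* mRNA along with Mira. *stau* had 18.8, 17.7 and 16.5 FPKM in ttk-RNAi, 9.17, 9.10 and 6.75 FPKM in dpn OE, 3.34, 3.78 and 6.68 FPKM in Nicd OE and 7.71, 7.08 and 11.4 FPKM in seq&Nicd OE, against 6.48, 7.68 and 7.36 FPKM in Ctrl. ttk-RNAi stood above all other libraries. The rise there was 2.47-fold (change 1.19, SE 0.24, limma adjusted p = 0.00084) and was called under all 15 alternatives. The change was 0.18 in dpn OE (interval -0.33 to 0.70) and 0.23 in seq&Nicd OE (interval -0.28 to 0.74). In Nicd OE it was -0.59 (limma adjusted p = 0.063), and *stau* was called lower there without the third libraries of both Nicd groups (-0.84, adjusted p = 0.0026). The median change of all genes tested was then -0.52. Of 16 alternatives 2 called *stau* lower in Nicd OE, with changes between -0.84 and -0.05 over all 16.

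Brain tumor (*brat*, chromosome 2L, 19133816 to 19179758, plus strand) is a translational repressor that restrains self-renewal in the neuroblast daughter that inherits it. *brat* had 10.2, 13.7 and 11.8 FPKM in ttk-RNAi, 14.9, 14.7 and 12.4 FPKM in dpn OE, 10.2, 7.74 and 10.6 FPKM in Nicd OE and 11.2, 8.75 and 9.55 FPKM in seq&Nicd OE, against 37.2, 21.8 and 37.1 FPKM in Ctrl. All 12 manipulated libraries were below all 3 of Ctrl, and the manipulated groups lay close together. *brat* fell 2.69-fold in ttk-RNAi (change -1.32, SE 0.23, limma adjusted p = 0.00026), 2.29-fold in dpn OE (-1.10, adjusted p = 0.00098), 3.36-fold in Nicd OE (-1.62, adjusted p = 0.0001) and 3.25-fold in seq&Nicd OE (-1.57, adjusted p = 8.3e-05). All 4 falls were called under every alternative run, including those without Ctrl replicate 2, its lowest Ctrl library. No pair of neighbours among the 4 manipulated groups passed the threshold, the smallest adjusted p being 0.4. Nicd OE and dpn OE, the lowest and highest of them, did not overlap. The change between them was -0.52 (interval -1.01 to -0.02, limma adjusted p = 0.06), and it was positive under other scalings (up to 0.67). The 4 falls are all set against the same Ctrl libraries and are not independent observations.

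Numb (*numb*, chromosome 2L, 9437469 to 9464184, plus strand) is the membrane-associated Notch inhibitor. *numb* had 10.4, 10.9 and 11.6 FPKM in ttk-RNAi, 15.7, 16.3 and 17.6 FPKM in dpn OE, 9.74, 11.1 and 10.4 FPKM in Nicd OE and 11.8, 9.57 and 9.20 FPKM in seq&Nicd OE, against 17.3, 6.91 and 19.2 FPKM in Ctrl. The manipulated groups were tight and Ctrl was not, as its second library was lower than every other library. No comparison with Ctrl passed, with changes of -0.26 in ttk-RNAi (interval -0.86 to 0.34) and 0.29 in dpn OE (interval -0.31 to 0.89). Nicd OE gave -0.33 (interval -0.92 to 0.27), and seq&Nicd OE gave -0.36 (interval -0.96 to 0.23). The calls turn on that library. Without it *numb* was called lower in ttk-RNAi (-0.69, limma adjusted p = 0.0038), in Nicd OE (-0.75, limma adjusted p = 0.0024) and likewise in seq&Nicd OE (-0.79, adjusted p = 0.0018).

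Lethal giant larvae (*l(2)gl*, chromosome 2L, 9839 to 21376, minus strand) is the cortical protein that opposes aPKC and lets the basal cargo bind the cortex. *l(2)gl* had 47.2, 54.6 and 47.4 FPKM in ttk-RNAi, 37.5, 33.4 and 38.2 FPKM in dpn OE, 20.1, 22.7 and 21.9 FPKM in Nicd OE and 19.8, 13.4 and 14.9 FPKM in seq&Nicd OE, against 38.9, 21.3 and 39.4 FPKM in Ctrl. ttk-RNAi was above and seq&Nicd OE below all Ctrl libraries. The rise in ttk-RNAi was 1.5-fold (change 0.62, limma adjusted p = 0.046), 0.38 relative to the median gene, and was kept by 3 of 15 alternatives. Without Ctrl replicate 2 it was 0.34 (limma adjusted p = 0.15), and leaving out any 1 ttk-RNAi library also lost the call (0.55 to 0.65). The fall in seq&Nicd OE was 2.07-fold (-0.97, limma adjusted p = 0.0054) and was lost with equal sums (-0.43), with equal assigned reads (-0.55) and when only the 2 groups were fitted. In Nicd OE the change of -0.55 did not pass (limma adjusted p = 0.079), but it was -0.83 without Ctrl replicate 2 (adjusted p = 0.0024). The median change of all genes tested was then -0.51. *l(2)gl* was called lower in Nicd OE under 1 of 16 alternatives, with changes up to 0.07.

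Between both Nicd groups, where *seq* is the labelled difference, the libraries carry replicate numbers whose deviations correlated at 0.20 to 0.43 across genes when the number was the same and at -0.36 to 0.26 when it was not, so a fit with the number as a block is given too. *stau* was 1.90-fold higher in seq&Nicd OE than in Nicd OE (change 0.82, SE 0.24, limma adjusted p = 0.024) with no overlap, and 6 of 17 alternatives lost the call, among them leaving out seq&Nicd OE replicate 3 (0.63) or Nicd OE replicate 1 (0.66) or 2 (0.73), and scaling to equal medians (0.48). *mud* was 7.34-fold higher (0.63, limma adjusted p = 0.0038), under all 17 alternatives. However, seq&Nicd OE replicate 3 (1.13 FPKM) was among the libraries with which *mud* passed the filter. Its values are also uncertain, as 98.6% of its exon bases are shared with an antisense gene. *Galphai* was 1.88-fold lower (-0.84, limma adjusted p = 0.019), which held under all 5 other scalings (-1.25 to -0.88) but not without the third libraries of both groups (-0.83, adjusted p = 0.058), without Nicd OE replicate 2 (-0.77) or without seq&Nicd OE replicate 1 (-0.74). *mira* averaged 7.33 ± 3.84 FPKM in seq&Nicd OE and 3.08 ± 0.120 FPKM in Nicd OE (SD, n = 3), with no overlap. Its change of 0.93 did not pass (limma adjusted p = 0.081) and did pass in the blocked fit of these 2 groups (adjusted p = 0.024) and without seq&Nicd OE replicate 1 (1.18, adjusted p = 0.048). Without seq&Nicd OE replicate 3 it was 0.58 (limma adjusted p = 0.36), and without the third libraries of both groups 0.61 (adjusted p = 0.36). *insc*, *loco*, *numb* and *brat* differed by -0.08, 0.06, -0.04 and 0.05, with 95% intervals that lay between -0.63 and 0.59.

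Most of the 10 genes were lower in both Nicd groups than in the other manipulated groups. The median of all genes tested was lower there too, with changes of -0.88 to -0.42 in these 4 comparisons. In Nicd OE, 7 were lower than in ttk-RNAi and 8 lower than in dpn OE, beside 54.2% and 60.1% of all genes called lower. On the deposited scale, no gene of the 10 was higher there by limma, also at an unadjusted p under 0.05, beside 7.38% and 7.0% of all genes. In seq&Nicd OE, 8 were lower than in ttk-RNAi and 7 lower than in dpn OE, beside 37.4% and 55.2%. Again 0 were higher at either p on the deposited scale, beside 7.58% and 15.7%. Against dpn OE, *stau* was called higher in seq&Nicd OE under 5 of 16 alternatives (up to 0.89) and *mud* under 2. dpn OE against ttk-RNAi gave 4 higher (*loco*, *Galphai*, *pins* and *insc*) and 2 lower (*mud* and *stau*), beside 38.8% and 23.0%. *mud* is among the genes counted in each comparison with ttk-RNAi. Among the others *loco* changed most in dpn OE against ttk-RNAi, 3.88-fold higher (change 1.91, limma adjusted p = 9.7e-06). The fall of *numb* in seq&Nicd OE against dpn OE (-0.65, limma adjusted p = 0.048) was lost without any 1 of the 6 libraries (-0.75 to -0.59). In Nicd OE against ttk-RNAi that of *pins* (-0.52, limma adjusted p = 0.049) was lost without any 1 of 5 of them (-0.59 to -0.39). The fall of *pins* in seq&Nicd OE against ttk-RNAi (-0.75) was lost without replicate 2 of either group (-0.68 and -0.69), and that of *stau* in Nicd OE against dpn OE (-0.77) without Nicd OE replicate 1 (-0.61). Several of the differences between Nicd OE and the other manipulated groups turned positive under other scalings, *brat* and *numb* among them. Against ttk-RNAi, *numb* and *brat* were each called higher in Nicd OE under 3 of 16 alternatives, and *Galphai* under 2. Against dpn OE, *brat* was called higher in Nicd OE under 3 and lower under 2. *mira* stayed lower in Nicd OE than in ttk-RNAi and dpn OE under all 16 alternatives.

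**Figure D4:**
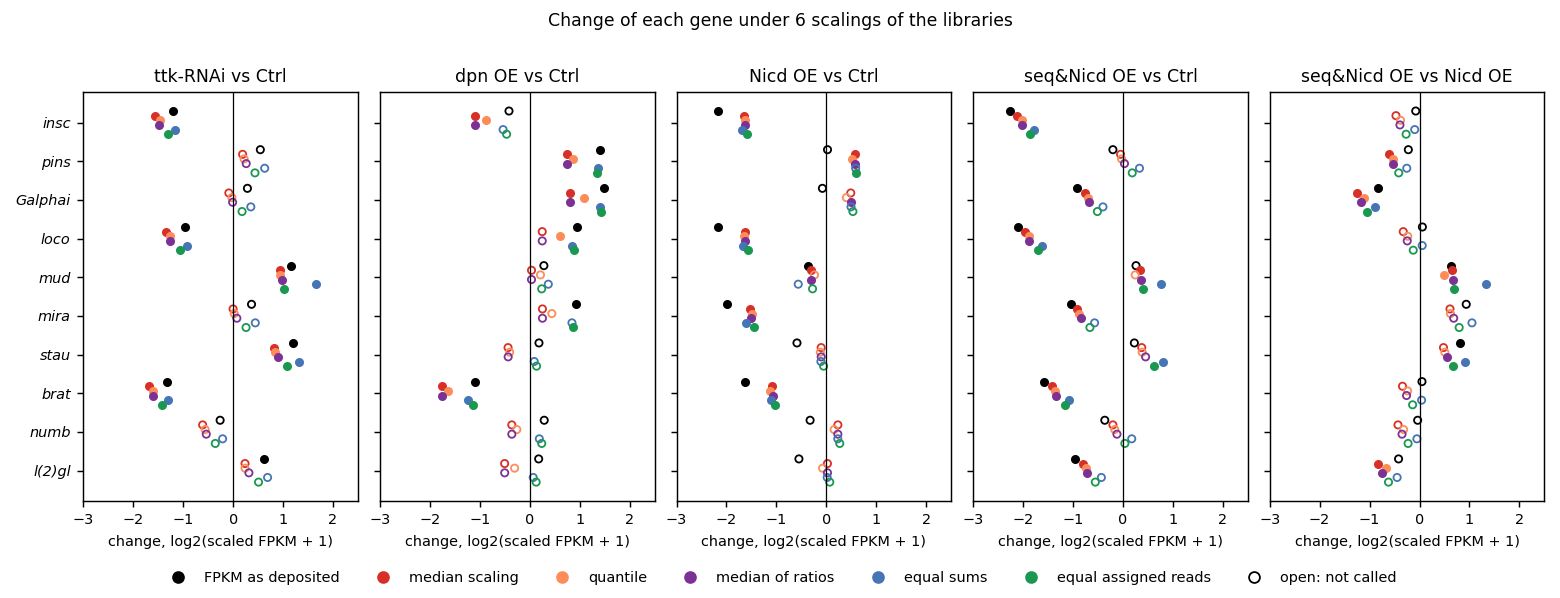
Change of each gene (x axis, log2 of scaled FPKM + 1) under the deposited scale and 5 other scalings of the libraries, in the 5 main comparisons; filled points were called at an adjusted p under 0.05 and open points were not. *insc*, *loco* and *brat* stay called lower in Nicd OE and seq&Nicd OE, *loco* in dpn OE ranges from 0.25 to 0.94, and *pins* in Nicd OE from 0.02 to 0.60.

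Without *mud*, the genes in Ctrl ranged from *loco* at 44.4 ± 13.5 FPKM, *insc* at 41.1 ± 1.62 FPKM, *l(2)gl* at 33.2 ± 10.3 FPKM and *brat* at 32.0 ± 8.86 FPKM down to *pins* at 8.76 ± 2.5 FPKM and *stau* at 7.17 ± 0.622 FPKM (SD, n = 3). All of these were above the median of 4.51 FPKM over the group means of all genes tested. These rankings are a description, as amplification can distort levels between genes. In Nicd OE *l(2)gl* (21.6 ± 1.36 FPKM) and *Galphai* (18.7 ± 3.24 FPKM) were the highest of them, and *mira* was the lowest. In dpn OE *loco* (84.2 ± 6.01 FPKM) and *Galphai* (57.2 ± 9.19 FPKM) led.

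The wider pathway was covered by 54 further genes in 5 lists, of which 52 were tested. Their symbols were taken from lists of known components, and the 3 largest called rises and falls of each comparison are named. In ttk-RNAi 18 of the 52 were higher than in Ctrl and 3 lower, or 34.6% and 5.8%, beside 30.7% and 13.7% of all genes. Of the 15 spindle, centrosome and dynein genes 7 rose and 0 fell, and of the 10 apical polarity and junction genes 5 rose and 0 fell, against 30.7% higher and 13.7% lower among all genes. The largest rises were *polo*, the mitotic kinase that also directs Numb (27.5 ± 1.29 FPKM in ttk-RNAi, 7.92 ± 3.92 FPKM in Ctrl, limma adjusted p = 0.002), *neur*, the ubiquitin ligase of Delta (63.3 ± 2.87 FPKM in ttk-RNAi, 23.5 ± 16.1 FPKM in Ctrl, adjusted p = 0.0076, change 1.70), and the spindle protein gene *mars* (6.15 ± 0.436 FPKM in ttk-RNAi, 1.63 ± 0.327 FPKM in Ctrl, adjusted p = 2.7e-05). The largest falls were *Khc-73*, a kinesin that links Pins to microtubules (2.30 ± 0.430 FPKM in ttk-RNAi, 13.99 ± 2.77 FPKM in Ctrl, limma adjusted p = 7e-07), *Galphao* (7.27 ± 0.174 FPKM in ttk-RNAi, 16.3 ± 5.13 FPKM in Ctrl, adjusted p = 0.007) and *Ggamma1* (87.4 ± 0.731 FPKM in ttk-RNAi, 139 ± 19.4 FPKM in Ctrl, adjusted p = 0.036), all SD with n = 3. Ctrl replicate 2 had 6.32 FPKM of *neur*, and without it the change was 0.98 (limma adjusted p = 0.019). The fall of *Ggamma1* (-0.66) was lost without Ctrl replicate 2 (-0.55) and without any 1 ttk-RNAi library (-0.66 to -0.65). Under scaling to equal medians 14 were higher and 9 lower, beside 1970 and 1984 of all 8209 genes. Without Ctrl replicate 2 there were 7 lower, beside 1513 of 8163.

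In dpn OE 17 of the 52 were higher and 14 lower than in Ctrl. These are 32.7% and 26.9%, beside 44.6% and 12.5% of all genes. Under scaling to equal medians 6 were higher and 27 lower, beside 1833 and 2045 of all 8209 genes. Without dpn OE replicate 1 or 2 there were 10 higher, beside 3025 of 8037 and 2906 of 8038. *polo* (36.4 ± 2.84 FPKM in dpn OE, 7.92 ± 3.92 FPKM in Ctrl, limma adjusted p = 0.00035), *Tre1*, a G protein-coupled receptor that orients polarity in neuroblasts (129 ± 10.3 FPKM in dpn OE, 40.0 ± 2.99 FPKM in Ctrl, adjusted p = 9.3e-05), and *Cdk1* (34.8 ± 6.07 FPKM in dpn OE, 13.0 ± 6.76 FPKM in Ctrl, adjusted p = 0.0072) rose most. *pros*, the Mira cargo and enteroendocrine factor, fell to 0.560 ± 0.0591 FPKM in dpn OE, against 8.88 ± 2.21 FPKM in Ctrl (limma adjusted p = 4.9e-07). The microtubule-binding protein gene *ens* (15.3 ± 1.86 FPKM in dpn OE, 63.1 ± 22.0 FPKM in Ctrl, limma adjusted p = 0.00064) and *Galphao* (3.49 ± 0.425 FPKM in dpn OE, 16.3 ± 5.13 FPKM in Ctrl, adjusted p = 5.5e-05) fell as well.

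In Nicd OE 1 of the 52 was higher and 19 were lower, or 1.9% and 36.5%, beside 5.07% and 34.2% of all genes. Without Ctrl replicate 2 these counts were 0 and 33, beside 365 and 3703 of all 8163 genes. Under scaling to equal medians 9 were higher and 13 lower, beside 1490 and 1515 of 8209. On the deposited scale with all libraries, the share lower is near that of all genes. The rise was that of *Moe*, the cortical actin linker (118 ± 14.4 FPKM in Nicd OE, 76.1 ± 18.7 FPKM in Ctrl, limma adjusted p = 0.033), and it was lost without Ctrl replicate 2 (0.44) and without Nicd OE replicate 2 (0.56), from 0.65 with all libraries. *Tre1* (4.78 ± 0.963 FPKM in Nicd OE, 40.0 ± 2.99 FPKM in Ctrl, limma adjusted p = 2e-06), *Cdk1* (1.68 ± 0.945 FPKM in Nicd OE, 13.0 ± 6.76 FPKM in Ctrl, adjusted p = 0.00053) and *pros* (1.60 ± 0.388 FPKM in Nicd OE, 8.88 ± 2.21 FPKM in Ctrl, adjusted p = 5.3e-06) fell most.

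In seq&Nicd OE 5 of the 52 were higher and 8 lower than in Ctrl, or 9.6% and 15.4%, beside 13.3% and 21.2% of all genes. Without Ctrl replicate 2 there were 20 lower, beside 2416 of all 8163 genes. Without Ctrl replicate 3 there were 3, beside 1473 of 8162. Without seq&Nicd OE replicate 1 or 2 there were 5 lower, beside 1147 of 8163 and 1145 of 8143. Without seq&Nicd OE replicate 3 there were 3 higher, beside 930 of 8162. Scaling to equal medians gave 7 higher and 7 lower, beside 1643 and 1668 of 8209. *mars* (7.26 ± 0.387 FPKM in seq&Nicd OE, 1.63 ± 0.327 FPKM in Ctrl, limma adjusted p = 1.1e-05), the spindle pole gene *asp* (2.81 ± 1.31 FPKM in seq&Nicd OE, 0.694 ± 0.692 FPKM in Ctrl, adjusted p = 0.0044) and *polo* rose most. *polo* had 11.9, 11.9 and 37.8 FPKM in seq&Nicd OE, against 12.2, 4.42 and 7.19 FPKM in Ctrl, so that 1 library carried the change of 1.16 (limma adjusted p = 0.034), which was 0.63 without it (adjusted p = 0.15). The call was also lost without Ctrl replicate 2 (0.84) or 3 (1.14). *Tre1* (4.15 ± 2.21 FPKM in seq&Nicd OE, 40.0 ± 2.99 FPKM in Ctrl, limma adjusted p = 2.7e-07), *Khc-73* (4.20 ± 0.604 FPKM in seq&Nicd OE, 13.99 ± 2.77 FPKM in Ctrl, adjusted p = 6e-05) and the centrosomal gene *Plp* (2.74 ± 0.827 FPKM in seq&Nicd OE, 7.31 ± 3.22 FPKM in Ctrl, adjusted p = 0.0046) fell most. Against Nicd OE, 12 of the 52 were higher in seq&Nicd OE and 1 was lower. These are 23.1% and 1.9%, beside 15.8% and 3.85% of all genes. There were 6 higher without Nicd OE replicate 1 or 2 or seq&Nicd OE replicate 3. Of all genes, 926 of 8189, 978 of 8187 and 985 of 8162 were then higher. Scaling to equal medians gave 10 higher and 5 lower there, beside 1087 and 1071 of 8209. *polo* (20.5 ± 14.9 FPKM in seq&Nicd OE, 1.71 ± 0.873 FPKM in Nicd OE, limma adjusted p = 5.8e-05), *mars* (7.26 ± 0.387 FPKM in seq&Nicd OE, 1.34 ± 0.516 FPKM in Nicd OE, adjusted p = 4e-06) and *pros* (7.08 ± 0.786 FPKM in seq&Nicd OE, 1.60 ± 0.388 FPKM in Nicd OE, adjusted p = 1e-05) rose most, and *Moe* was lower (67.8 ± 14.6 FPKM in seq&Nicd OE, 118 ± 14.4 FPKM in Nicd OE, adjusted p = 0.019), a call that 6 of 17 alternatives lost, among them leaving out Nicd OE replicate 2 or seq&Nicd OE replicate 2 or 3. The change of *polo* between the Nicd groups remained at 2.30 without seq&Nicd OE replicate 3.

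**Figure D5:**
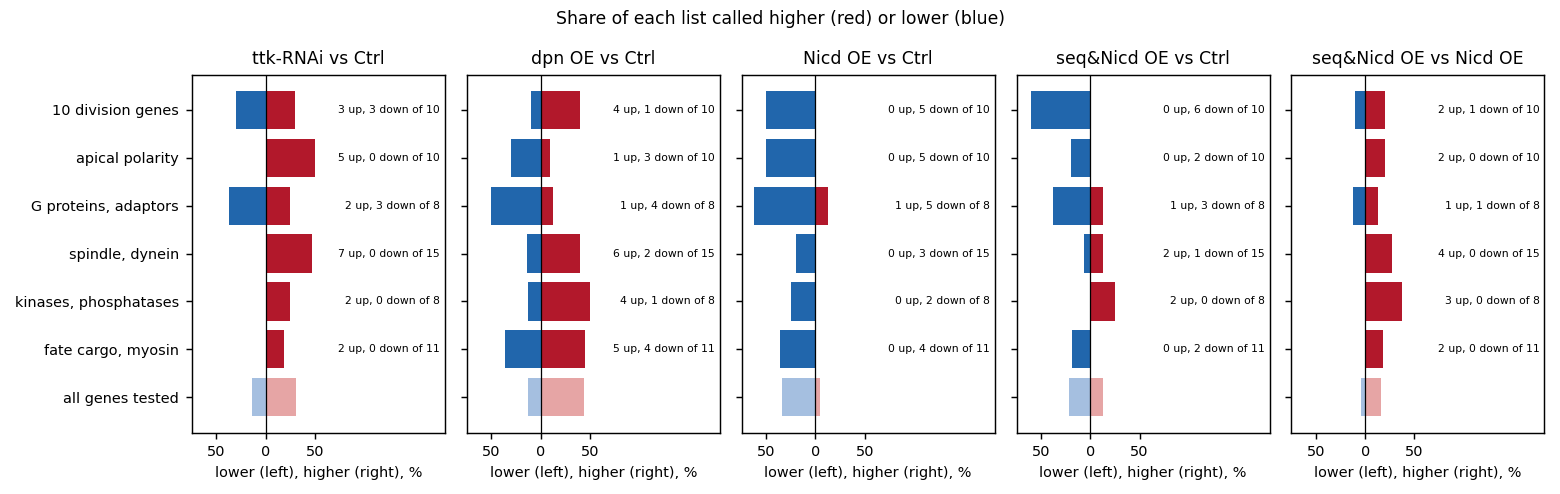
Share of each list called lower (bars to the left, blue) or higher (bars to the right, red) in the 5 main comparisons, in % of the genes tested, with the counts beside each bar; the pale bars at the bottom are all genes tested. In Nicd OE the bars to the left reach 5 of 10 division genes, beside 34.2% of all genes. They reach 5 of 8 genes in the list of G protein subunits and cortical adaptors.

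Markers of other cells were detected beside these genes. Of 7 progenitor markers 5 could be matched, without *esg* and *Dl*, and all 5 were detected in every library, with sums of 364 to 373 FPKM in ttk-RNAi, 690 to 868 FPKM in dpn OE, 251 to 303 FPKM in Nicd OE and 201 to 221 FPKM in seq&Nicd OE, against 704 to 1370 FPKM in Ctrl. *E(spl)mbeta-HLH* made up most of the Ctrl sums (463 to 1042 FPKM in Ctrl, 47.0 to 53.4 FPKM in ttk-RNAi). In ttk-RNAi *klu* was above Ctrl (116 to 128 FPKM in ttk-RNAi, 21.8 to 44.7 FPKM in Ctrl). *Sox21a* overlapped with Ctrl there, and *Sox100B* and *Stat92E* were below it. All 12 enteroendocrine markers were found, with sums of 1015 to 1158 FPKM in ttk-RNAi, 3080 to 4714 FPKM in dpn OE, 3211 to 4857 FPKM in Nicd OE and 5113 to 7811 FPKM in seq&Nicd OE, against 12874 to 62321 FPKM in Ctrl. The enteroendocrine sum was highest in Ctrl, where *insc* and *brat* were highest too. Within Ctrl this sum was largest in replicate 2, which had 21.8 FPKM of *brat*, against 37.2 and 37.1 FPKM in replicates 1 and 3. *insc* differed little within Ctrl (39.9 to 42.9 FPKM). *NPF* made up most of the Ctrl sums, with 6827 to 55989 FPKM. Other markers of the list were higher in seq&Nicd OE than in Ctrl, among them *Dh31* (178 to 377 FPKM in seq&Nicd OE, 8.70 to 55.7 FPKM in Ctrl), *CCHa1* (102 to 176 FPKM in seq&Nicd OE, 12.1 to 16.5 FPKM in Ctrl) and *CCHa2* (75.6 to 239 FPKM in seq&Nicd OE, 14.1 to 19.5 FPKM in Ctrl). The sum of 9 enterocyte markers was 85.8 to 122 FPKM in ttk-RNAi, 566 to 645 FPKM in dpn OE, 209 to 323 FPKM in Nicd OE and 153 to 489 FPKM in seq&Nicd OE, against 161 to 458 FPKM in Ctrl. *Myo31DF*, the highest of them in ttk-RNAi, was above Ctrl there (60.2 to 67.8 FPKM in ttk-RNAi, 13.2 to 40.7 FPKM in Ctrl). *alphaTry*, *betaTry*, *Jon65Aiii*, *Jon65Aiv*, *Amy-p* and *Mal-A1* were below Ctrl in ttk-RNAi, and *nub* and *lambdaTry* overlapped with it. The 8 neuroblast genes, among them *insc* and *mira*, summed to 476 to 503 FPKM in ttk-RNAi and 257 to 433 FPKM in seq&Nicd OE, to 69.1 to 99.6 FPKM in dpn OE and 25.2 to 36.2 FPKM in Nicd OE, against 79.1 to 112 FPKM in Ctrl. In ttk-RNAi and seq&Nicd OE *dpn*, *wor* (26.8 to 60.9 FPKM) and *scrt* (11.2 to 13.5 FPKM) were above all Ctrl libraries, which had at most 1.64 FPKM of *wor* and 1.22 FPKM of *scrt*. *klu* was above Ctrl in ttk-RNAi and overlapped with it in seq&Nicd OE, *ase* was below Ctrl in both at no more than 0.2 FPKM, and *grh* was under 0.6 FPKM in every library. The 8 haemocyte, fat body, trachea and glia markers summed to 18.9 to 20.2 FPKM in ttk-RNAi, 2.12 to 3.43 FPKM in dpn OE, 1.13 to 1.49 FPKM in Nicd OE and 5.92 to 9.78 FPKM in seq&Nicd OE, against 3.60 to 6.46 FPKM in Ctrl. In ttk-RNAi *verm* (10.1 to 10.9 FPKM) and *srp* (6.72 to 7.20 FPKM) made up most of this sum, while *NimC1* and *Hml* were at 0.168 FPKM or less. The 5 germline markers summed to 8.92 to 9.76 FPKM in ttk-RNAi, 1.74 to 2.90 FPKM in dpn OE, 1.32 to 1.71 FPKM in Nicd OE and 4.19 to 7.61 FPKM in seq&Nicd OE, against 1.52 to 2.31 FPKM in Ctrl. The 7 muscle markers summed to at most 13.7 FPKM, reached in Ctrl, where *Mef2* had up to 11.9 FPKM, and *Mhc* was at 0.071 FPKM or less in every library. The part of these cells in the levels of the 10 genes was not tested.

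The genes whose levels ran most like those of each gene over the 15 libraries were found by Pearson's r of log2(FPKM + 1), given as a description, since the libraries share groups and depth. *mira* was closest to *MED16* (r = 0.97), a Mediator subunit gene, and to *Incenp* (0.97), a gene of the chromosomal passenger complex. *insc* was closest to *CG4452* (0.96) and *S* (0.95), *pins* to *Mys45A* (0.97) and *CG2906* (0.97), and *Galphai* to *pst* (0.98) and *CG2906* (0.95). *loco* was closest to *bdg* (0.98) and *CG5849* (0.98), *brat* to *nahoda* (0.94) and *sqz* (0.93), and *numb* to *CG33144* (0.94) and *Sgs8* (0.93). *l(2)gl* was closest to *dikar* (0.96) and *CG30281* (0.95), and *stau* to *Gdi* (0.97) and the dynein light chain gene *robl* (0.96). For *mud* the closest were FBgn0266421 (0.97), which has no symbol in the annotation used, and *Pka-C3* (0.97). *Incenp* was at 3.49 FPKM in ttk-RNAi, 4.90 FPKM in dpn OE, 0.137 FPKM in Nicd OE and 1.37 FPKM in seq&Nicd OE, against 3.20 FPKM in Ctrl (means of 3), the same order of groups as *mira*, and is itself 1 of the 12 markers of dividing cells.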

How the data were processed

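Sorted midgut progenitors were profiled by RNA-seq in 15 libraries of 5 groups of 3, grouped by their titles. Per the labels' protocols, cells were freed with elastase, sorted by green fluorescence, and their RNA was isolated with PicoPure and amplified with RiboAmp HS PLUS before Illumina sequencing. The authors deposited FPKM per gene and library. The submitters' processing notes name STAR 2.6.1a, DESeq2 and BDGP6, and the counting tool and its strand setting are not given in the sources used here. Amplification from few cells can distort levels, and FPKM depends on the reads it is scaled to.

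Values of up to 20 reads were whole within 0.02 for 97.8% to 98.3% of genes, from which the depth was estimated, and the lowest member value, *mud* in Nicd OE, corresponds to 13 reads. A count test was not run, since reads of longer genes are not fixed by these steps. Symbols came from annotation BDGP6.54, which named 17252 of 17558 IDs and left 306 unnamed.

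Differences were tested on log2(FPKM + 1) with limma 3.58.1 (R 4.3.3) over the 8209 genes with at least 1 FPKM in at least 3 libraries, with 5 group means, all 15 libraries, a trended prior, two-sided tests and Benjamini-Hochberg adjustment in each of 10 contrasts. The fit was tested on simulated data. Python 3.11.15, numpy 2.4.6, pandas 2.3.3, scipy 1.17.1 and matplotlib 3.10.9 did the rest. Alternatives were a pseudocount of 0.1, no filter on low values, 5 other scalings, a replicate block, fits of only the 2 groups compared and each library left out. Scaling to equal assigned reads, leaving out the third libraries of both Nicd groups, and the block with only the 2 groups were chosen after seeing the data.

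Same-numbered libraries of Nicd OE and seq&Nicd OE deviated from their group means together (r of 0.20, 0.43 and between), so the numbers were taken to pair these groups, from the data alone. Libraries with different numbers reached 0.26 (replicate 1 of Nicd OE with replicate 2 of seq&Nicd OE), so the numbers do not separate replicates 1 and 2. No other pair of groups passed this check. The 10 genes, the pathway lists and the marker lists were chosen with earlier results of these data known. Of the pathway genes, the 3 largest called rises and falls of each main comparison are named, and of all genes the 2 most like each of the 10. Planned counts of promoter motifs were not run, as no sequences were used here.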

Additional observations from a re-analysis of the deposited data

How the results depend on the processing

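Of 25 calls of the 10 genes in the main comparisons, 16 held under every alternative run and 9 were lost under at least 1. The calls of *mud* in ttk-RNAi and between the Nicd groups are among the 16. As *mud* had to differ between groups to pass the filter and its values are uncertain, they say little about robustness. Over 1580 recomputed values of single genes, 27 changed sign with a call on one side, all under another scaling. The scalings move the median of all genes, and the cause of each shift was not tested. Under scaling to equal medians, quantile normalization and median-of-ratios scaling, in that order, Nicd OE against ttk-RNAi gave *pins* 0.38, 0.29 and 0.31 (0.17 with equal assigned reads), *numb* 0.84, 0.72 and 0.77 and *brat* 0.61, 0.49 and 0.53, with *Galphai* at 0.58 and 0.50 under the first and last. Nicd OE against dpn OE gave *brat* 0.67, 0.51 and 0.67, *l(2)gl* 0.52, 0.23 and 0.52 and *stau* 0.33, 0.28 and 0.33. seq&Nicd OE against dpn OE gave *numb* 0.16, 0.10 and 0.24, and *mud* 0.30 and 0.33 under the first and last. Nicd OE against Ctrl gave *Galphai* 0.49 under median-of-ratios scaling.

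Counts among the 10 genes moved as follows under those 3 scalings. Except where all genes are given, the counts here and below are not set beside all genes. They do not separate a list from a shift of all genes. In dpn OE against Ctrl 2 were higher under the first and last and 2 lower under all, in Nicd OE 1, 1 and 2 were higher, and in seq&Nicd OE 1 was higher under the first and last. Against Nicd OE, seq&Nicd OE had 1 higher under the first and second and 3 lower under all, and seq&Nicd OE had 5 genes apart from ttk-RNAi under all. Nicd OE had 4 genes apart from dpn OE under the first and last. With equal sums or equal assigned reads seq&Nicd OE had 2 higher and 3 lower than Ctrl, Nicd OE had 4 apart from ttk-RNAi, seq&Nicd OE had 2 and 5 apart from ttk-RNAi, and with equal assigned reads Nicd OE had 1 higher than Ctrl. With only the 2 groups fitted, seq&Nicd OE had 3 lower than Ctrl and 1 higher than Nicd OE. Without the third libraries of both Nicd groups 0 were lower in seq&Nicd OE than in Nicd OE, and with 1 library left out 1 to 3 were higher and 0 to 1 lower.

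Of the 52 pathway genes, those lower in ttk-RNAi were 9 under all 3 scalings, 6 with equal assigned reads and 2 to 7 with 1 library left out. In dpn OE 6, 8 and 6 were higher and 27, 24 and 27 lower under the 3 scalings. Of all 8209 genes, 1833, 2274 and 1841 were then higher and 2045, 1711 and 2041 lower. In dpn OE 11 pathway genes were higher under equal sums and with only the 2 groups, and 10 to 19 with 1 library left out. In Nicd OE 9 were higher under all 3, 4 with equal sums, 6 with equal assigned reads and 0 with only the 2 groups, and 12 were lower under quantile normalization, 10 with equal sums, 11 with equal assigned reads and 11 with only the 2 groups (0 to 1 higher and 14 to 33 lower with 1 library left out). In seq&Nicd OE against Ctrl 8 were higher under quantile normalization, 9 under median-of-ratios scaling, 10 with equal sums, 12 with equal assigned reads, 2 with only the 2 groups, 3 without the third libraries of both Nicd groups and 3 to 7 with 1 library left out, and 2, 3 and 2 were lower with equal sums, equal assigned reads and only the 2 groups (3 to 20 with 1 library left out). Against Nicd OE 6 to 12 were higher and 0 to 1 lower with 1 library left out, and 5, 5 and 3 were lower under the 3 scalings, 0 with equal sums, only the 2 groups or without the third libraries, and 2 with the replicate block and only the 2 groups.

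With the replicate block and only the paired groups, 3 of the 10 genes were higher and 1 lower in seq&Nicd OE than in Nicd OE, and 16 of the 52 pathway genes were higher. In the other comparisons the numbers do not pair the libraries; with the replicate block over all 15 libraries *l(2)gl* in ttk-RNAi (0.62, limma adjusted p = 0.051) and *mud* in Nicd OE (-0.37, adjusted p = 0.066) lost their calls.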
